A study of Mus musculus with 12 samples.

Results

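The 9 genes described here carry iron in and out of liver cells, store it, or set the level of the iron hormone hepcidin: Hamp, Tfrc, Tfr2, Trf, Fth1, Ftl1, Hfe, Hfe2 and Cp. They were picked by name, with earlier results of these data known, from a table of nascent RNA with 21490 gene symbols. Of these genes, 7 were listed under the symbols above, and 2 under older ones, Hamp as Hamp1 and Tfr2 as Trfr2. The study used Nascent-Seq, in which RNA that is still attached to the chromatin of purified liver nuclei is depleted of polyadenylated RNA and sequenced. Livers came from adult male wild-type C57BL/6 mice, 3 to 6 months old, kept in 12 hr of light and 12 hr of darkness for at least 2 weeks. The 6 groups were times of collection given as zeitgeber time in hours (ZT0, lights on, then ZT4, ZT8, ZT12, lights off, ZT16 and ZT20), each sampled in 2 replicates, for a total of 12 libraries. Genotype and housing were shared by all mice, and there was no control group beside the time points themselves.

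Hepcidin, the peptide made from Hamp, is secreted by hepatocytes and makes the iron exporter ferroportin disappear from cell surfaces, which lowers iron release into blood. Hepatocytes sense circulating iron through transferrin receptor 2, the HFE protein and hemojuvelin, which feed into bone morphogenetic protein (BMP) signalling and raise Hamp transcription, and inflammation raises it through interleukin-6 and STAT3. Transferrin receptor 1 and the ferritins are known instead for control at the level of their RNA by iron regulatory proteins, a step that nascent RNA does not report.

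The promoter of Hamp is shown because it holds the letters of both of these inputs within a short stretch. The 250 bases before the RefSeq start, at chr7:30944030-30944279 on the minus strand of GRCm38.p6, are given 5′ to 3′, with a match to the BMP response element GGCGCC and a match to the STAT pattern TTCNNNGAA in capitals.
Hamp: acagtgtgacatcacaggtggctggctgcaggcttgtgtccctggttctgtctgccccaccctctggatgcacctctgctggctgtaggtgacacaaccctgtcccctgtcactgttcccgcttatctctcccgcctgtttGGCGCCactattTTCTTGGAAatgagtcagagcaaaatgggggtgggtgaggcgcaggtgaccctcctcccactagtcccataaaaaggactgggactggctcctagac
The first match began 109 bases and the second 97 bases before the start. Among all 32544 promoter windows of RefSeq, which run from 250 bases before to 50 bases after a start, 11.9% held GGCGCC and 8.33% held TTCNNNGAA on either strand. RefSeq entries were found for 7 of the 9 genes, with 12 starts. None was found for Trf or Hfe2 in the promoter set used here, so their promoters were not searched. GGCGCC also occurred 89 bases before the first start of Tfrc. The E-box CACGTG, bound by the clock activators, and the D-box TTATGTAA, searched on both strands, occurred in none of the 12 windows, against 7.17% and 0.931% of all windows. The loop letters of an iron-responsive element, CAGTGN, were searched on the strand of the transcript in the 50 bases after the start. They were found in 1 window, at base 38 of the second start of Tfr2, and in 7.08% of all windows. An element further along a transcript lies outside this search, so it cannot say which genes lack one. A match of this kind describes the letters only.

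Signal is given in reads per base pair (rpbp), the coverage of the exons of a gene divided by their length, which puts genes of different length on the same scale. Exon GC content, reads shared with copies elsewhere and the gradient of signal that the study reported along many genes were not corrected for. An order of genes by level is therefore approximate. The signal summed over the table ranged from 118342 to 160545 per library. Both replicates of ZT8 and ZT20 were sequenced in 2 lanes and the other 8 libraries in 1 lane, so lanes and time cannot be told apart in a comparison of ZT8 or ZT20 with the other 4 time points. Time points 12 hr from each other had the same number of lanes. All 6 hepatocyte markers (such as Alb) were above 6 rpbp, and their summed signal ranged from 703.6 to 1692 rpbp per library. The sums were 26.0 to 84.5 rpbp for 10 macrophage markers, 16.2 to 34.6 for 7 endothelial, 10.4 to 15.2 for 7 stellate cell, 1.0 to 2.5 for 5 cholangiocyte, 8.5 to 14.6 for 2 red cell and 2.5 to 8.0 for 3 leukocyte markers, with no marker listed at 0 in every library. Of 4 listed red cell markers 2 were found, and their sum was nearly all Alas2 (8.5 to 14.4 rpbp), with the globin gene Hbb-b1 at 0.2 rpbp or less. A smaller share of one cell type and less RNA per cell cannot be told apart in whole liver.

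Transferrin had by far the highest signal. Its mean over the 12 libraries was 212.3 ± 103.6 rpbp (SD), and the lowest Trf value, 118.7, lay above every value of the other 8 genes. Tfr2 (45.6 ± 9.88 rpbp) and Cp (43.9 ± 18.9) came next and did not separate, since Tfr2 was above Cp in 7 of 12 libraries. Cp was above Hamp (28.9 ± 15.7) in 9 libraries, and Hamp above Hfe2 (16.6 ± 4.51) in 10. Hfe2 was above Ftl1 (12.9 ± 3.78) in 8 libraries, and Ftl1 above Fth1 (7.51 ± 1.65) in 11. Fth1 was above Tfrc (3.01 ± 1.19) in all 12, and Tfrc above Hfe (2.86 ± 0.633) in 6. Trf and Tfr2, and Fth1 and Tfrc, were thus the only neighbours in this order that were ranked alike in every library.

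**Figure D1:**
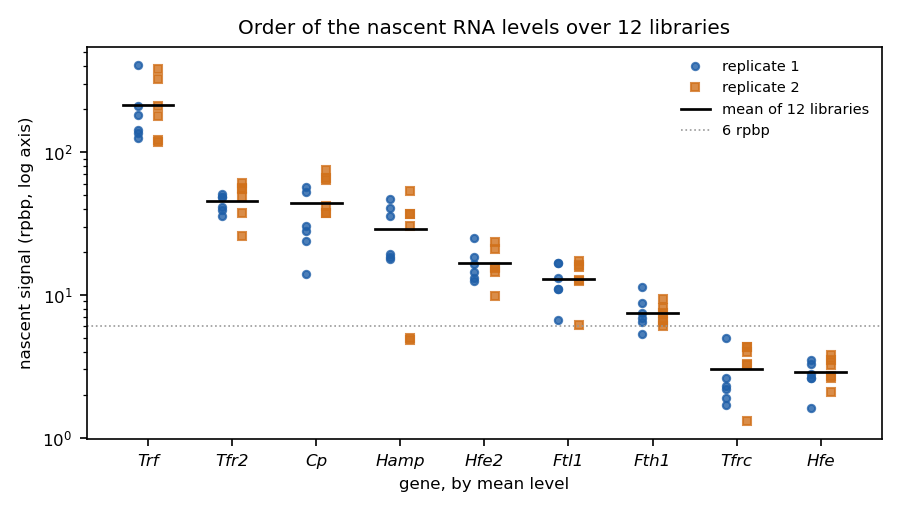
Nascent signal in rpbp on a log axis for the 9 genes, ordered by mean, with 1 point per library (circles for replicate 1, squares for replicate 2), a bar for the mean of 12 libraries and a dotted line at 6 rpbp. Trf sits alone at 118.7 to 409.2 rpbp, Tfrc and Hfe stay below the line in all libraries, and 2 points of Hamp lie near 5 rpbp, far from its other 10.

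To ask whether any of these genes was transcribed with a daily rhythm, F24, the share of the variance of the 12 values that lies in a 24-hr cosine, was tested with a one-sided permutation test. The test covered the 6284 symbols that exceeded 6 rpbp in 1 library or more, which kept 7 of the 9 genes and left out Tfrc (highest value 5.0 rpbp) and Hfe (3.8 rpbp). A rhythm was called where F24 exceeded 0.45, the unadjusted p was below 0.05 and the largest of the 12 values was more than 1.5 times the smallest. By this rule 0 of the 7 genes were called, against 15.1% of all tested symbols, and 0 had an unadjusted p under 0.05. The median F24 of the 7 was 0.245, beside 0.222 over all tested symbols. Ftl1 (F24 of 0.453, permutation p = 0.0692) and Fth1 (0.433, p = 0.0683) came closest, followed by Hfe2 (0.395, p = 0.113). In the same permutation test Cp (0.245, p = 0.279), Trf (0.235, p = 0.305), Hamp (0.219, p = 0.324) and Tfr2 (0.0876, p = 0.659) were lower.

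A difference of any shape among the 6 time points was tested with limma's moderated F-test on log2(rpbp + 1). Here too 0 of the 7 genes passed at an adjusted p under 0.05, against 7.65% of all tested symbols, and 0 had an unadjusted p under 0.05. The lowest adjusted p was 0.195, for Fth1, and the highest 0.647, for Cp. Time points 12 hr apart were then compared in the same fit. The difference ZT12 minus ZT0 was called for 0 of the 7 genes (4.44% of all tested symbols), ZT16 minus ZT4 for 0 (2.1%) and ZT20 minus ZT8 for 0 (1.58%), and in each case 0 of them had an unadjusted p under 0.05. The p-values measure the spread between these libraries, and the sources used here do not say how many mice each library holds.

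**Figure D2:**
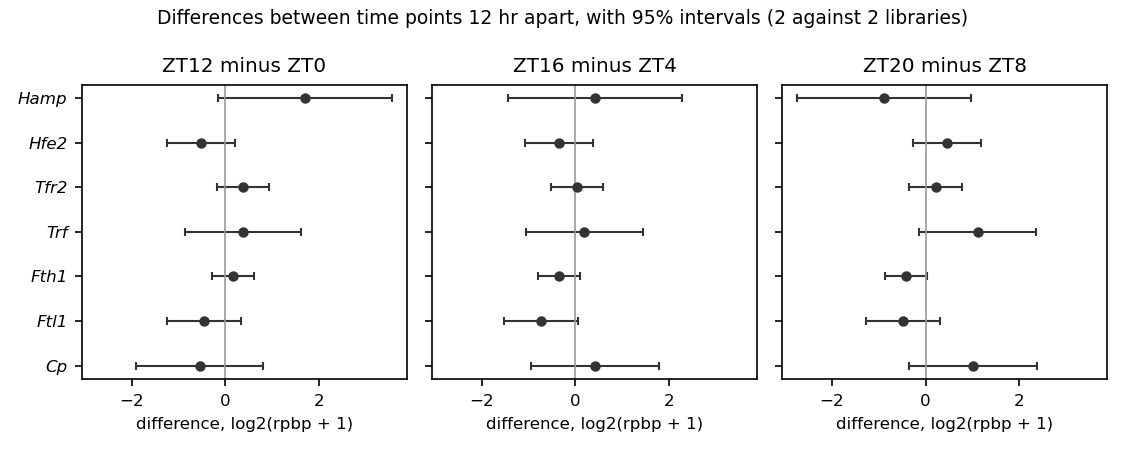
Differences on the log2(rpbp + 1) scale between time points 12 hr apart for the 7 tested genes, with points for the limma estimate (2 against 2 libraries) and bars for its 95% interval. Each of the 21 intervals includes 0, and those of Hamp are the widest, up to 3.56 for ZT12 minus ZT0.

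Hamp, the hepcidin gene, varied most. The gene has 3 exon blocks of 392 bases in all at chr7:31727388-31729036 (mm9, minus strand). In replicate 1 its signal was 19.3 rpbp at ZT0, 17.8 at ZT4, 18.5 at ZT8, 40.5 at ZT12, 47.0 at ZT16 and 35.9 at ZT20, so every value from ZT12 to ZT20 lay above every value from ZT0 to ZT8. In replicate 2 it was 5.0 at ZT0, 53.7 at ZT4, 36.7 at ZT8, 30.2 at ZT12, 36.8 at ZT16 and 4.8 at ZT20, so ZT0 and ZT20 were low and the other 4 were 30.2 or more. The highest of the 12 values was 11.2 times the lowest. Replicates differed 7.48-fold at ZT20, 3.86-fold at ZT0 and 3.02-fold at ZT4, and a ratio at least as large was seen in 0.302%, 0.382% and 1.26% of tested symbols at these time points. At ZT12 and ZT16 the replicates differed 1.34-fold and 1.28-fold, close to the medians over tested symbols of 1.23 and 1.28.

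The cosines fitted to replicate 1 and to replicate 2 of Hamp peaked at different times, but only that of replicate 1 had an exact permutation p below 0.05. The p-values of single series were not adjusted for the number of genes and series fitted. Replicate 1 alone had an F24 of 0.950 with its peak at 15.7 hr (exact permutation p = 0.0333 over all 720 orders), and replicate 2 alone had 0.505 with its peak at 8.51 hr (exact permutation p = 0.35). The difference ZT12 minus ZT0 was 1.71 on the log2(rpbp + 1) scale (95% interval -0.153 to 3.56, adjusted p = 0.317 by limma), with 12.2 ± 10.1 rpbp at ZT0 and 35.4 ± 7.28 at ZT12 (SD, n = 2 each). For ZT16 minus ZT4 it was 0.41 (-1.45 to 2.27) and for ZT20 minus ZT8 -0.89 (-2.75 to 0.968). In the 2 libraries with the lowest Hamp signal, ZT0 and ZT20 of replicate 2, Cp was 64.1 and 74.7 rpbp, among its 3 highest values. The other of these Cp values, 66.2 rpbp in ZT8 replicate 2, came with 36.7 rpbp for Hamp. Over all 12 libraries Pearson's r of Hamp and Cp on the log2(rpbp + 1) scale was only -0.222. The library of ZT20 replicate 2 also had the highest sum of hepatocyte markers (1692 rpbp). The second hepcidin gene, Hamp2, ranged from 0 to 1.8 rpbp.

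The genes that act on hepcidin from the hepatocyte surface were steadier. Hfe2, which encodes hemojuvelin, a co-receptor for BMPs, gave 16.4, 14.5, 13.1, 12.4, 18.3 and 24.9 rpbp from ZT0 to ZT20 in replicate 1, and 23.3, 21.0, 15.4, 14.4, 9.8 and 15.7 in replicate 2. In both series each value from ZT4 to ZT12 was below the one before it and ZT20 was above ZT12, while ZT16 was 18.3 in one and 9.8, the lowest of all, in the other. Taken alone, replicate 1 had an F24 of 0.774 with a peak at 20.04 hr and replicate 2 an F24 of 0.861 with a peak at 2.19 hr, each with an exact permutation p of 0.0667. The time-point means were 19.9 ± 4.88 rpbp at ZT0 and 13.4 ± 1.41 at ZT12, a difference of -0.52 on the log2(rpbp + 1) scale (95% interval -1.25 to 0.213).

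Tfr2, which binds iron-loaded transferrin and signals to Hamp, gave 35.5, 48.3, 41.5, 48.3, 51.1 and 39.4 rpbp from ZT0 to ZT20 in replicate 1, and 48.1, 55.7, 26.0, 60.5, 55.0 and 37.3 in replicate 2. Its means were highest at ZT12 (54.4 ± 8.63 rpbp), ZT16 (53.1 ± 2.76) and ZT4 (52.0 ± 5.23), and lowest at ZT8 (33.8 ± 10.96) and ZT20 (38.4 ± 1.49), the time points sequenced in 2 lanes, so that lanes and time cannot be told apart here. The 3 higher time points did not overlap ZT8 and ZT20 in any library, but this split was chosen from the means. It leaves out ZT0, where 35.5 rpbp lay within the range of the lower set and 48.1 just under the higher set. The means alone thus had 2 high phases rather than 1, and the limma F-test did not call Tfr2. Of the variance of Tfr2, 71.03% lay between time points (median of tested symbols 63.3%), with an F24 of only 0.0876. The difference ZT16 minus ZT4 was 0.03 on the log2(rpbp + 1) scale (95% interval -0.530 to 0.591), and ZT20 minus ZT8 was 0.22 (-0.345 to 0.776).

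Hfe, whose protein partners with the transferrin receptors, was low throughout, between 1.6 rpbp in ZT0 replicate 1 and 3.8 in ZT0 replicate 2, with a median of 2.75. Its lowest and highest values came from the same time point, and from ZT8 to ZT20 the replicates differed by at most 1.35-fold.

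Among the genes of iron uptake, transferrin, the iron carrier of plasma, had replicate values that parted from ZT12 on. Trf signal was 136.5 and 179.5 rpbp at ZT0, 181.8 and 210.7 at ZT4, and 143.3 and 118.7 at ZT8, where the replicates differed by at most 1.32-fold. It was 126.4 and 327.8 rpbp at ZT12, 409.2 and 121.6 at ZT16, and 209.4 and 382.9 at ZT20, where they differed 2.59-fold, 3.37-fold and 1.83-fold, and no more than 4.39% of tested symbols differed by as much at any of these time points. The 3 highest values, 327.8 to 409.2 rpbp, thus came from 1 library each of ZT12, ZT16 and ZT20, while the other ZT12 and ZT16 libraries lay below all 4 libraries of ZT0 and ZT4. The difference ZT20 minus ZT8 was 1.11 on the log2(rpbp + 1) scale (95% interval -0.136 to 2.36, adjusted p = 0.484 by limma), with non-overlapping values.

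Tfrc, transferrin receptor 1, stayed below the threshold, with 2.6, 2.3, 2.2, 1.9, 1.7 and 5.0 rpbp from ZT0 to ZT20 in replicate 1 and 4.0, 3.2, 4.3, 3.3, 1.3 and 4.3 in replicate 2. The lowest value of each series was at ZT16 and the highest at ZT20, shared with ZT8 in replicate 2. With the threshold at 3 rpbp Tfrc was tested and was not called (F24 of 0.176, permutation p = 0.409; limma F-test, unadjusted p = 0.0420, adjusted p = 0.193).

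**Figure D3:**
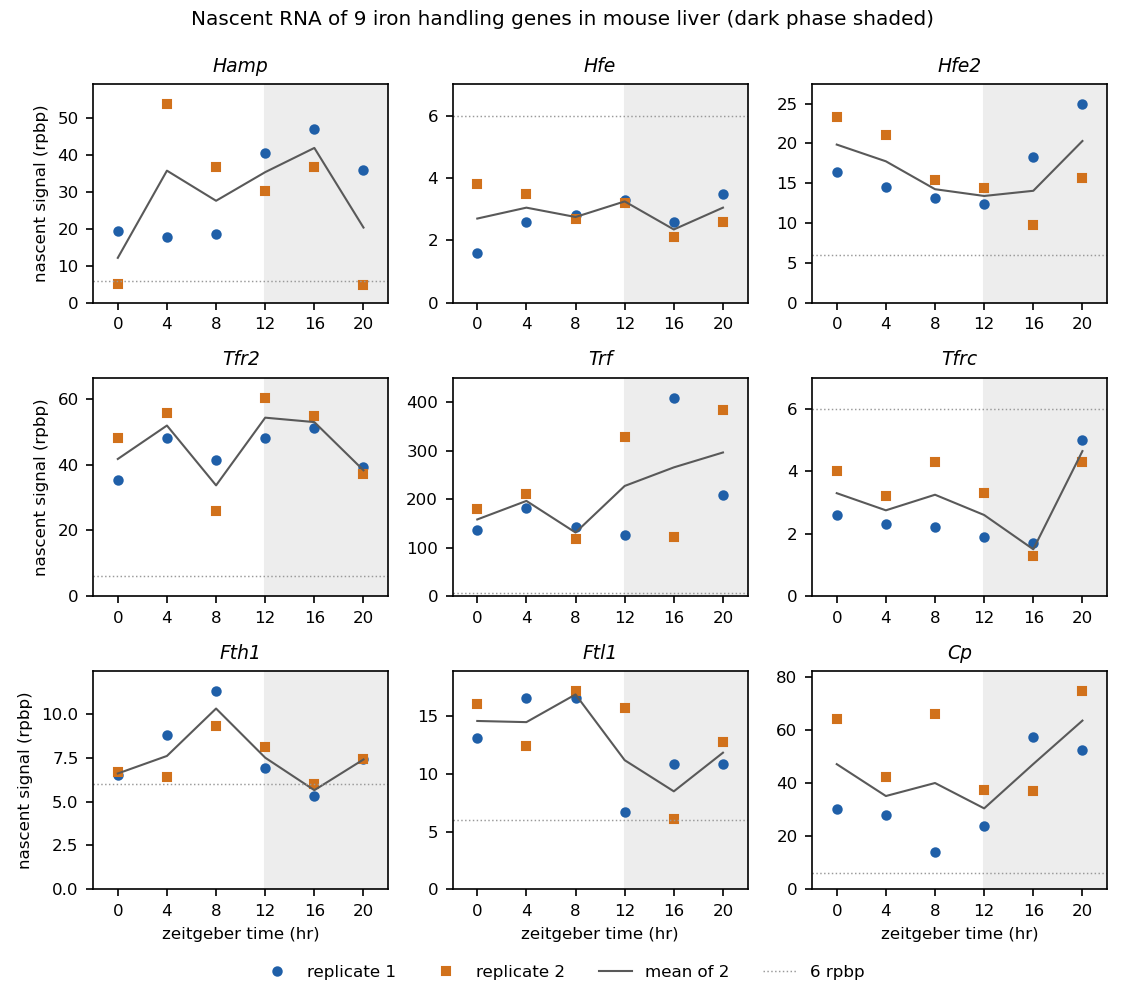
Nascent signal in rpbp against zeitgeber time for each of the 9 genes, with circles for replicate 1, squares for replicate 2, a line through the mean of 2 and a dotted line at 6 rpbp. Fth1 and Ftl1 have their highest mean at ZT8 (10.3 and 16.9 rpbp) and their lowest at ZT16 (5.65 and 8.50 rpbp), whereas the replicates of Hamp, Trf and Cp lie far apart at several time points.

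The ferritin genes, which encode the heavy (Fth1) and light (Ftl1) chains of the iron storage shell, had their highest and lowest means at the same times, ZT8 and ZT16. Fth1 signal was 6.5, 8.8, 11.3, 6.9, 5.3 and 7.4 rpbp from ZT0 to ZT20 in replicate 1 and 6.7, 6.4, 9.3, 8.1, 6.0 and 7.4 in replicate 2. Both replicates were highest at ZT8 and lowest at ZT16, and every other library fell between these. Ftl1 gave 13.1, 16.6, 16.6, 6.7, 10.9 and 10.9 rpbp in replicate 1, and 16.1, 12.4, 17.2, 15.7, 6.1 and 12.8 in replicate 2, so that the lowest value came at ZT12 in one series and at ZT16 in the other. The ZT8 libraries, at 16.6 and 17.2 rpbp, were within 1.04-fold of each other.

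Fth1 was the member with the smallest spread between replicates, and 80.5% of its variance lay between time points, against 57.1% for Ftl1. The peak of the fitted cosine was at 7.21 hr for Fth1 and at 4.53 hr for Ftl1. Ftl1 passed the limit on F24 (0.453) and on the ratio of highest to lowest (2.82) but not on p, and Fth1 passed only the limit on the ratio (2.13). The difference ZT20 minus ZT8 of Fth1 was -0.42 on the log2(rpbp + 1) scale (95% interval -0.869 to 0.0247, adjusted p = 0.441 by limma), and ZT16 minus ZT4 of Ftl1 was -0.74 (-1.54 to 0.0536, adjusted p = 0.284).

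Whether the ferritins were called depended on single libraries. Ftl1 was called rhythmic without ZT4 replicate 2 (F24 of 0.584, permutation p = 0.0351), without ZT12 replicate 1 (0.534, p = 0.0431) and without ZT12 replicate 2 (0.570, p = 0.0395). Fth1 was called without ZT4 replicate 2 (0.610, permutation p = 0.0165). It was also called with the lanes as a block (0.677, permutation p = 0.0183). That setting centres and permutes values within the libraries of 1 lane and within those of 2. Without ZT20 replicate 1 Fth1 was called at the limit (0.512, permutation p = 0.0495). Without ZT20 replicate 2, which had the same value of 7.4 rpbp, F24 was again 0.512 but Fth1 was not called. The values left were the same, so the call without a ZT20 library turned on the random permutations alone. Removing the trend of signal with exon GC content from each library gave lower F24, 0.288 for Fth1 and 0.358 for Ftl1. Ferritin has processed copies elsewhere in the genome, and because only uniquely mapped reads were counted, reads shared with a copy are missing from these values. The annotated copy Ftl2 was listed at 0.1 rpbp at most.

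Cp encodes ceruloplasmin, the copper-containing ferroxidase of plasma that helps iron leave cells. Its signal was 30.2, 28.1, 13.9, 23.7, 57.2 and 52.4 rpbp from ZT0 to ZT20 in replicate 1, and 64.1, 42.2, 66.2, 37.3, 37.2 and 74.7 in replicate 2. Replicate 1 was low in the light phase and at ZT12 and high at ZT16 and ZT20, while replicate 2 was high at ZT0, ZT8 and ZT20. At ZT8 the replicates differed 4.76-fold, a ratio reached by 0.875% of tested symbols. The means ranged from 30.5 ± 9.62 rpbp at ZT12 to 63.6 ± 15.8 at ZT20, and the difference ZT20 minus ZT8 was 1.01 on the log2(rpbp + 1) scale (95% interval -0.359 to 2.37, adjusted p = 0.605 by limma).

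Cp was not called with all 12 libraries, but it was called without ZT8 replicate 2. Without this library F24 rose from 0.245 to 0.602 with a peak at 20.3 hr (permutation p = 0.0292), which met all 3 limits. In that library the signal of GC-rich exons was low relative to GC-poor ones, by -1.21 on the log2 scale between the highest and the lowest of 20 GC bins, against -0.598 to 0.575 in the other 11 libraries, and the exons of Cp had a GC content of 39.7%, below 7 of the other 8 genes. With the GC trend removed Cp was called (F24 of 0.507, peak at 19.0 hr, permutation p = 0.0370). This correction did not narrow the range of Cp, whose highest value was 5.66 times the lowest after it and 5.37 times before. The difference ZT20 minus ZT8 was 1.17 after it and 1.01 before. What part base composition has in the ZT8 value was not tested. The annotated Cp gene (chr3:19857054-19908792, mm9, plus strand) overlaps Hps3 on the other strand, and reads of the shared stretch cannot be told apart without strand. The signal listed for Hps3 was 2.9 to 4.4 rpbp.

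The 7 tested genes differed widely in the spread between replicates. The SD of log2(rpbp + 1) within time points was 1.07 for Hamp, larger than in 99.2% of tested symbols, 0.774 for Cp (97.4%) and 0.703 for Trf (96.6%). It was 0.417 for Ftl1 (83.9%), 0.374 for Hfe2 (78.9%), 0.253 for Tfr2 (49.9%) and 0.157 for Fth1 (13.9%), where the median of all tested symbols was 0.254. Genes of nearly the same mean signal could differ in it, as Tfr2 and Cp did. The exons of Hamp are short, 392 bases against 866 to 9566 in the other 8 genes, and how far length sets its spread was not tested.

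**Figure D4:**
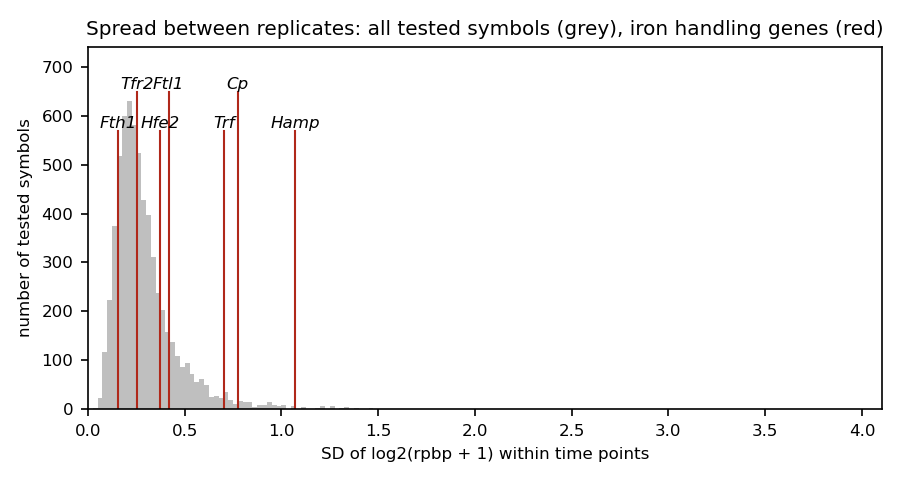
Number of tested symbols by the SD of log2(rpbp + 1) within time points (grey histogram, 6284 symbols), with a red line at each of the 7 tested iron handling genes. Fth1 (0.157) and Tfr2 (0.253) lie in the bulk, and Trf (0.703), Cp (0.774) and Hamp (1.07) lie in the upper tail.

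The 9 genes did not move as a block. Over the 36 pairs of genes, Pearson's r of log2(rpbp + 1) across the 12 libraries, which all pairs share, ranged from -0.470 to 0.680 with a median of 0.158. It was over 0.5 for 6 pairs. The highest was between Tfrc and Hfe2 (0.680), followed by Fth1 and Ftl1 (0.6). Hamp had an r of 0.197 with Tfr2 and -0.149 with Hfe2, and -0.400 with Ftl1. The symbols outside its own locus whose profile was most like that of Hamp were AK154275 (r of 0.826 over 12 libraries), AK015214 (0.735) and Lsr (0.725). AK154275 and Lsr overlap each other on chromosome 7, 13392 and 13758 bases upstream of the start of Hamp, which is on the minus strand (mm9), and ranged from 19.7 to 57.5 rpbp and from 15.8 to 42.7 rpbp. AK015214, on chromosome 6, did not exceed 6.1 rpbp.

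Other genes of iron and heme handling were examined from a list of 58 that held none of the 9. The table had 56 of them, and 30 were tested. By the rhythm rule 5 of the 30 were called (16.7%, close to the 15.1% of all tested symbols). By the limma F-test 6 were called (20%, against 7.65%), so that 8 genes were called by one test or both. The list was chosen with earlier results of these data known, so these shares are no test of the list. The count of 6 ranged from 1 to 7 when each library was left out. By group, 2 of 5 tested transport genes, 1 of 12 hepcidin control genes, 2 of 6 genes of heme scavenging and recycling, 0 of 6 sensing and storage genes and 0 of 1 gene of iron-sulfur and heme synthesis were rhythmic. The same groups had 2, 1, 3, 0 and 0 genes past the F-test. Between ZT0 and ZT12, 2 of the 30 differed (4.44% of all tested symbols), between ZT4 and ZT16 again 2 (2.1%), and between ZT8 and ZT20 none (0, against 1.58%). The ferroportin gene, Slc40a1, the target of hepcidin, was not called (13.0 to 40.1 rpbp, F24 of 0.126, permutation p = 0.694), and neither was Tmprss6, the protease that cleaves hemojuvelin (21.8 to 52.1 rpbp, F24 of 0.396, permutation p = 0.118).

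Of the transport genes, Slc39a14, which takes up iron not bound to transferrin, had a mean of 29.2 ± 4.31 rpbp at ZT0 and 74.2 ± 19.9 at ZT16 (SD, n = 2 each) and was called by both tests (F24 of 0.532, permutation p = 0.0228; limma F-test, adjusted p = 0.0358). Its 4 libraries of ZT12 and ZT16 lay above the other 8. Slc11a2, the divalent metal transporter, had its lowest mean at ZT8 (6.15 ± 1.20 rpbp) and its highest at ZT20 (10.9 ± 0.212). It was called rhythmic (F24 of 0.711, peak at 21.5 hr, permutation p = 0.00749) but did not pass the limma F-test (adjusted p = 0.193). The loci of both genes are listed a second time in the table, as fad123 (21.6 to 75.5 rpbp) and Nramp2 (4.6 to 8.9 rpbp). The metalloreductase gene Steap4 rose by 2.47 on the log2(rpbp + 1) scale from ZT4 to ZT16 (95% interval 1.48 to 3.45, adjusted p = 0.0273 by limma), with 14.1 and 48.6 rpbp in the ZT16 libraries against 10.9 or less in the others.

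Of the hepcidin control genes, Il6ra, which encodes the receptor chain that binds interleukin-6, rose by 2.87 from ZT0 to ZT12 (95% interval 1.93 to 3.81, adjusted p = 0.00590 by limma). Its ZT12 libraries, at 40.5 and 44.1 rpbp, stood above 3.3 to 15.7 rpbp in the other 10, and it was called by both tests (F24 of 0.527, permutation p = 0.00610). Hamp in the same ZT12 libraries was 40.5 and 30.2 rpbp, above its ZT0 values of 19.3 and 5.0 and within the range of its other values. Its difference ZT12 minus ZT0, 1.71, was not called (adjusted p = 0.317 by limma).

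Of the heme scavengers, Hpx (hemopexin, which binds free heme) rose by 1.91 from ZT4 to ZT16 (95% interval 1.44 to 2.38, adjusted p = 0.00298 by limma), from 33.5 ± 3.68 to 129.5 ± 27.2 rpbp. Hp (haptoglobin, which binds free hemoglobin) was rhythmic (F24 of 0.647, peak at 14.04 hr, permutation p = 0.00814), with 20.6 ± 2.19 rpbp at ZT4 and 83.7 ± 18.5 at ZT16. Hp did not pass the limma F-test (adjusted p = 0.0682), and its difference ZT16 minus ZT4 was not called. Cd163, the macrophage receptor for haptoglobin bound to hemoglobin, had 8.35 ± 1.77 rpbp at ZT12 and 1.45 ± 1.49 at ZT8 and was called by both tests (F24 of 0.632, permutation p = 0.0108; limma F-test, adjusted p = 0.0421). It exceeded 6 rpbp only in the ZT12 libraries and ZT16 replicate 2, so it entered the tests through the time points where it was high, and its other 9 values were 0.4 to 5.4 rpbp. The summed macrophage markers were highest in ZT8 replicate 1 (84.5 rpbp), the library in which Cd163 was lowest (0.4 rpbp). Single markers in that sum varied unequally over the libraries, from 1.3 to 3.5 rpbp for Cd68 and from 0.1 to 20.5 for Marco. What part macrophage content has in the Cd163 values was not tested. Hmox2, a heme oxygenase, rose by 1.53 from ZT0 to ZT12 (95% interval 0.924 to 2.14, adjusted p = 0.0141 by limma), but it overlaps 5730403B10Rik, which had the higher signal (12.5 to 54.6 rpbp), so reads of the pair cannot be told apart.

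**Figure D5:**
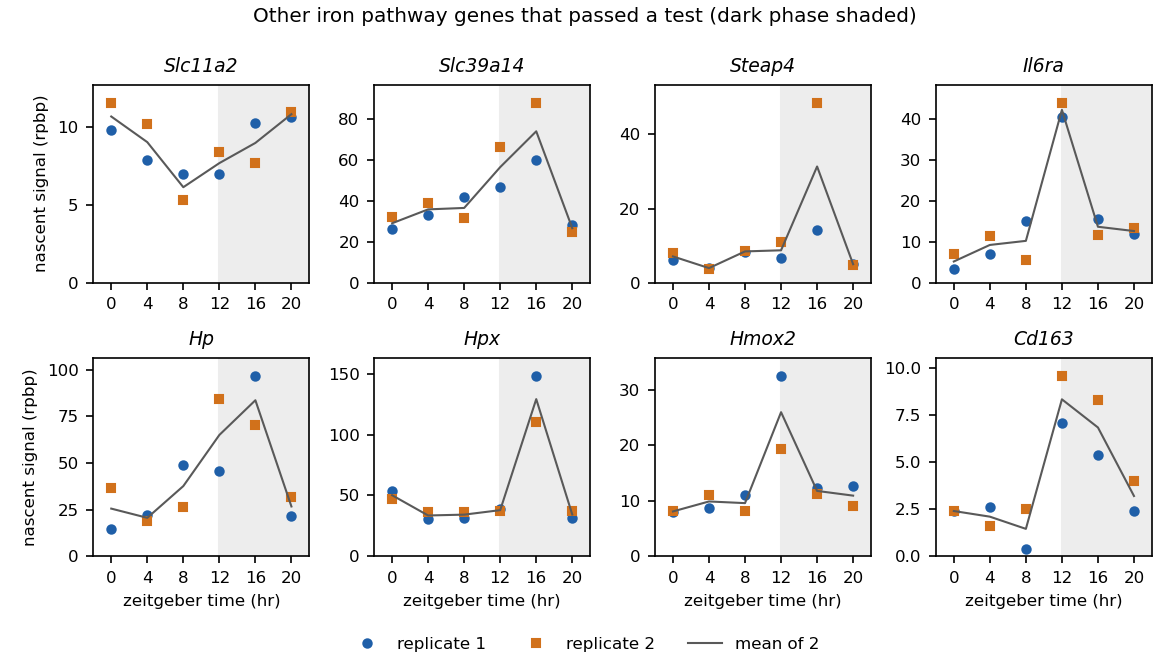
Nascent signal in rpbp against zeitgeber time for the 8 other iron pathway genes that passed a test, with circles for replicate 1, squares for replicate 2 and a line through the mean of 2. Il6ra and Hmox2 have their highest mean at ZT12, Slc39a14, Steap4, Hp and Hpx at ZT16, Cd163 at ZT12 and Slc11a2 at ZT20.

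The rhythm calls of Slc11a2, Hp and Cd163 were kept when any 1 of the 12 libraries was left out, that of Slc39a14 in 11 of 12 cases (lost without ZT0 replicate 1) and that of Il6ra in 10 (lost without either ZT12 library). By the F-test Hpx was kept in 12 of 12 cases, Il6ra in 7, Cd163 and Hmox2 in 3 each, and Slc39a14 and Steap4 in 2 each. With the p-value of the rhythm rule adjusted over all tested symbols, 0 of the 5 rhythmic genes were called.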

How the data were processed

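Nascent-Seq signal of 12 mouse liver libraries (6 time points, 2 replicates) was analysed. The submitters' processing notes name mm9, CASAVA 1.7 and TopHat. The authors kept uniquely mapped reads, divided exon coverage by exon length without regard to strand, scaled it to the same number of reads per library, merged lanes, and deposited this signal in rpbp with 1 decimal. The table's 27919 blank lines were dropped. The authors' own 24-hr score, phase and p-value per gene were not used. The signal is no read count, so no count model was fitted, the reads behind a value are unknown, and 2 replicates limit the precision.

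Testing was limited to symbols that exceeded 6 rpbp in 1 library or more. F24 was computed on linear values, with 100000 permutations. limma 3.58.1 was fitted to log2(rpbp + 1), with Benjamini-Hochberg adjustment over 6284 symbols. Both were tested on simulated data. Time points and replicate numbers came from the labels, and lanes, sex and the rhythm limits from the study's methods. Genes and mm9 positions were matched to GENCODE M1, older symbols and promoters to RefSeq (GRCm38.p6). Exon GC was known for 5576 tested symbols.

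The members and lists were chosen with earlier results of these data known. Named were all members, listed iron genes called by the rhythm rule or the F-test (Slc40a1, Tmprss6, Hamp2, Hps3 and Ftl2 were named after their values were seen), the 3 symbols most like Hamp outside its locus, and marker groups. Alternatives were thresholds of 3 and 12 rpbp or none, median-ratio rescaling, GC correction, a replicate block, lanes as a block, log2 values, adjusted p, the ratio of time-point means, each series alone, pseudocounts of 0.1 and 3, 1-lane time points alone, and each library left out.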

Additional observations from a re-analysis of the deposited data

How the results depend on the processing

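The count of members called rhythmic was 0 and became 1 with the GC trend removed (Cp), 1 with lanes as a block (Fth1), 1 with series 1 alone (Hamp), and 0 to 2 when each library was left out. It was 0 under the other settings, and the limma counts stayed at 0 under all of theirs. Iron pathway genes called rhythmic, 5, became 3 at a threshold of 12 rpbp, 8 with median-ratio rescaling, 8 with the GC trend removed, 0 with adjusted p, 2 and 0 with series 1 and series 2 alone, and 4 to 8 leaving out each library (8 without ZT8 replicate 2 and without ZT16 replicate 2). Those past the F-test, 6, became 1 with no filter, 3 with pseudocount 0.1, 3 in the 1-lane time points, and 1 to 7 leaving out each library (1 without ZT0, ZT12 or ZT20 replicate 1 or ZT12 or ZT20 replicate 2, 2 without ZT4 replicate 1, ZT0 replicate 2 or ZT4 replicate 2, 3 without ZT8 replicate 2). The cause was not tested. At 12 rpbp Fth1 was not tested.

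The deviations of libraries with the same replicate number had a correlation over 0.1 in 5 of 15 pairs of time points, ZT8, ZT16 and ZT20 among them (range -0.117 to 0.32), so the numbers were not taken to pair all libraries. With the replicate block 0 members were called by either test, and the F24 of Ftl1 was 0.460 (permutation p = 0.0881).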
